A study of Rattus norvegicus with 36 samples.

Results

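The 8 genes described here encode inflammatory mediators and proteins of myeloid cells: Cxcl1, Cxcl2, S100a8, S100a9, Siglec5, Lcn2, Il1b and Csf3r. They are 8 of the 14217 genes that the arrays measured with a probe set naming exactly 1 gene, and each of the 8 had 1 such probe set. They were picked because their log2 values differed among single animals in these same arrays, so that their levels and their spread among animals are given as a description. The values come from 36 livers, each of 1 male rat of the Harlan Sprague Dawley stock. The rats were 7 weeks old at the start, were gavaged on 5 days in a row and were killed 1 day after dosing ended. The groups were vehicle (corn oil alone, dose 0) and 5 doses, the lower being 0.1, 0.94 and 9.4 mg/kg and the upper 94.3 and 943 mg/kg, of tetrabromobisphenol A-bis(2,3-dibromopropyl ether), abbreviated TBBPA-DBPE, in corn oil. This compound is a brominated flame retardant. Each group held 6 animals, and each animal gave 1 array of total RNA from the left lobe. The study compared each dose with vehicle. A piece of whole liver holds several cell types, so that fewer cells of a type and less RNA per cell cannot be told apart in these values.

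In inflamed liver, resident macrophages and hepatocytes release chemokines of the CXC family, and Cxcl1 and Cxcl2 are the ligands that draw neutrophils through the receptor Cxcr2. Neutrophils carry large amounts of the calcium-binding pair S100a8 and S100a9, which form the heterodimer calprotectin, and they depend on Csf3r, the receptor for granulocyte colony-stimulating factor. Il1b, a cytokine cleaved by the inflammasome, induces many of these genes through the transcription factor NF-kappaB. Lcn2, a lipocalin that binds bacterial siderophores, is stored in neutrophil granules and is also made by hepatocytes in the acute phase. Siglec5 is a sialic acid-binding receptor of the immunoglobulin superfamily on myeloid cells.

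The chemokine genes Cxcl1 and Cxcl2 lie next to each other on chromosome 14 with 0 annotated genes between them. S100a8 and S100a9 are likewise neighbours on chromosome 2. Of the 8 genes, 7 had an entry in the promoter sequences from RefSeq (build GRCr8), which were read over the 250 bases before the gene start. Both strands were searched for a form of the NF-kappaB motif, GGG followed by any 2 bases and then TTTCC. Matches were found upstream of Cxcl1 and Cxcl2, 2 of the 7 genes, against 1.3% of 33469 rat promoters of the same length. The sequences of both are shown because these neighbours share the motif but differed in their spread among animals. Capitals mark the matches, and both are written along the gene's own strand, the minus strand, from chr14:17479322-17479571 for Cxcl1 and chr14:17467256-17467505 for Cxcl2.
Cxcl1: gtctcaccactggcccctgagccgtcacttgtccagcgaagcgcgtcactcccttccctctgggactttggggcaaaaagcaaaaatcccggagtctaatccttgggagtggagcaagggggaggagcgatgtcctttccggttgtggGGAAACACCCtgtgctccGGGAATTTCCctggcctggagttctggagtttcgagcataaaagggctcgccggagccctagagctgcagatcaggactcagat
Cxcl2: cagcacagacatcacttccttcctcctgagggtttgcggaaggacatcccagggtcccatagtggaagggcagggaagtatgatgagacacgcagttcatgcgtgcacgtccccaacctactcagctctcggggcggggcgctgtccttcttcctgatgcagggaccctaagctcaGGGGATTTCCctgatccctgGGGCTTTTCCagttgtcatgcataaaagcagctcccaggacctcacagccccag
In Cxcl1, the match GGGAATTTCC ran from base -84 to base -75 before the start, and a match on the other strand, read here as GGAAACACCC, from base -102 to base -93. In Cxcl2, GGGGATTTCC ran from base -74 to base -65 and GGGCTTTTCC from base -54 to base -45. The letters TATAAA, the core of the TATA box, were found before S100a9 from base -42 to base -37 and before Il1b from base -60 to base -55, against 12.9% of all promoters. A match of letters is a description and shows no binding.

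The arrays were alike in their overall values. Their medians ranged from 4.59 to 4.66 in log2 units, and the correlation of any pair of arrays over the probe sets was between 0.989 and 0.997. Vehicle replicate 1 had the lowest median correlation with the other arrays, 0.992. No probe set among the 31042 tested passed the adjusted threshold of limma at any dose. The dose comparisons below therefore describe differences that did not pass.

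The signs of neutrophils in these livers were weak. Of 35 genes listed as neutrophil markers, 21 were measured, and the defining myeloperoxidase and elastase genes Mpo and Elane were not among them. The probe sets of 13 of the 21 lay below the median of every array in all 36 livers. They included Camp, the cathelicidin of secondary granules, at 3.11 to 3.93 over the 36 livers, and Mmp8, the neutrophil collagenase, at 2.67 to 3.23. Cxcr2, the receptor for Cxcl1 and Cxcl2, lay at 2.53 to 3.27. The measured genes with the largest spread were Fcgr3a, an Fc receptor of neutrophils, macrophages and killer cells (SD 0.502), Lyz2, lysozyme of all myeloid cells (0.494), RatNP-3b, a neutrophil defensin (0.477), and Cybb, the catalytic subunit of the phagocyte oxidase (0.278). Fcgr3a was highest in replicate 6 at 0.1 mg/kg, Lyz2 and RatNP-3b in vehicle replicate 6 and Cybb in vehicle replicate 3. RatNP-3b reached 4.49 in vehicle replicate 6, with a median of 2.46 over the 36 livers. The defensins Np4 and Defa5 were also highest in that undosed liver. Lyz2 also stands in the macrophage list, Hp in the acute phase list and Itgam in the monocyte list, so that at least these 3 do not mark neutrophils alone. Fcgr3a and Cybb, as described above, are not genes of neutrophils alone either. The 8 genes are therefore called inflammation genes here, not neutrophil genes.

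Cxcl1 had the widest spread of the 8. Its log2 value ran from 3.32 to 8.68 over the 36 livers with a median of 4.24, a range of 40.9-fold. Its SD of 1.18 was larger than that of 99.9% of the 14217 genes, among which the median SD was 0.140. Group by group, the lowest, median and highest values were 3.74, 4.17 and 5.32 in vehicle livers, 3.51, 4.73 and 6.58 at 0.1 mg/kg, and 3.32, 3.66 and 4.79 at 0.94 mg/kg. They were 4.06, 5.53 and 8.68 at 9.4 mg/kg, 3.96, 4.16 and 6.51 at 94.3 mg/kg, and 4.14, 4.76 and 6.87 at 943 mg/kg. High livers occurred in most groups and the groups overlapped. In all, 11 livers lay at least 1 log2 unit above the median of the 36. They were replicates 1 (8.68), 5 (6.42), 4 (5.55) and 6 (5.50) at 9.4 mg/kg, replicates 4 (6.87) and 6 (6.00) at 943 mg/kg, and replicate 5 at 94.3 mg/kg (6.51). The rest were replicates 5 (6.58), 2 (5.40) and 6 (5.36) at 0.1 mg/kg and replicate 6 of vehicle (5.32). The 0.94 mg/kg group had no liver among them. In 22 livers the Cxcl1 signal lay below every array median, and in 14 above. The 40.9-fold range starts from such a dim value, where a log2 difference is a poor measure of fold.

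Cxcl2 did not share this spread. Its values ran from 3.05 to 3.87 with a median of 3.36, a range of 1.77-fold, and lay below the median of every array in all 36 livers. The lowest, median and highest values were 3.23, 3.42 and 3.87 in vehicle livers, 3.25, 3.34 and 3.70 at 0.1 mg/kg, and 3.10, 3.38 and 3.62 at 0.94 mg/kg. They were 3.23, 3.36 and 3.66 at 9.4 mg/kg, 3.05, 3.40 and 3.77 at 94.3 mg/kg, and 3.10, 3.32 and 3.71 at 943 mg/kg. The groups overlapped almost wholly, and the 3 highest livers were vehicle replicate 1 (3.87), replicate 3 at 94.3 mg/kg (3.77) and replicate 1 at 943 mg/kg (3.71). The liver with the highest Cxcl1, replicate 1 at 9.4 mg/kg, had 3.36 for Cxcl2.

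S100a8 and S100a9 were flat in most livers and high in a few. For S100a8, the lowest, median and highest values were 3.66, 4.09 and 4.20 in vehicle livers, 3.56, 3.93 and 4.36 at 0.1 mg/kg, and 3.85, 4.0 and 4.08 at 0.94 mg/kg. They were 3.88, 4.11 and 6.11 at 9.4 mg/kg, 3.75, 3.97 and 5.35 at 94.3 mg/kg, and 4.03, 4.22 and 4.68 at 943 mg/kg. The group medians thus lay within a narrow band while the highest values did not. Replicate 1 at 9.4 mg/kg (6.11) and replicate 6 at 94.3 mg/kg (5.35) were the 2 livers at least 1 log2 unit above the median, followed by replicate 1 at 943 mg/kg (4.68). S100a8 lay below every array median in 33 livers and above in 3.

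S100a9 picked out the same 3 livers in the same order, and its probe set lay above every array median in all 36. Its lowest, median and highest values were 4.71, 5.20 and 5.79 in vehicle livers, 4.73, 5.30 and 5.78 at 0.1 mg/kg, and 5.22, 5.37 and 5.58 at 0.94 mg/kg. They were 5.28, 5.62 and 7.52 at 9.4 mg/kg, 5.23, 5.44 and 6.40 at 94.3 mg/kg, and 5.22, 5.81 and 6.03 at 943 mg/kg. Replicate 1 at 9.4 mg/kg had 7.52, replicate 6 at 94.3 mg/kg 6.40 and replicate 1 at 943 mg/kg 6.03. The range over the 36 livers was 6.98-fold for S100a9 and 5.87-fold for S100a8.

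Lcn2 was also highest in replicate 1 at 9.4 mg/kg, at 6.59, but its next livers were others: replicate 1 at 0.1 mg/kg (5.88) and replicate 4 at 0.94 mg/kg (5.72). The lowest, median and highest values were 4.37, 4.71 and 4.84 in vehicle livers, 3.88, 4.31 and 5.88 at 0.1 mg/kg, and 4.41, 4.64 and 5.72 at 0.94 mg/kg. They were 3.92, 4.64 and 6.59 at 9.4 mg/kg, 3.90, 4.70 and 5.22 at 94.3 mg/kg, and 4.44, 5.13 and 5.43 at 943 mg/kg. Vehicle livers held the narrowest range for this gene, with an SD of 0.167, against 0.710 at 0.1 mg/kg and 0.902 at 9.4 mg/kg. The ratio of these SDs was not tested.

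Siglec5 also spread widely among animals. Its range was 13.0-fold, from 1.91 to 5.61 with a median of 2.57, and its SD of 0.995 was larger than that of 99.9% of the genes. The lowest, median and highest values were 1.91, 2.33 and 3.50 in vehicle livers, 2.48, 3.28 and 4.41 at 0.1 mg/kg, and 1.93, 2.40 and 3.63 at 0.94 mg/kg. They were 2.25, 3.78 and 5.61 at 9.4 mg/kg, 2.23, 2.52 and 3.61 at 94.3 mg/kg, and 2.41, 3.41 and 4.88 at 943 mg/kg. The 11 livers at least 1 log2 unit above the median came from every dosed group and, at this cutoff, none from vehicle. Of these livers 4 were also among the 11 high in Cxcl1 (36.4% of each set). The highest were replicates 6 (5.61) and 5 (5.25) at 9.4 mg/kg and replicate 5 at 943 mg/kg (4.88). The others were replicate 2 at 9.4 mg/kg (4.26), replicates 2 and 6 at 943 mg/kg (4.35 each), replicates 2 (4.41) and 4 (4.11) at 0.1 mg/kg, replicate 4 at 0.94 mg/kg (3.63), and replicates 4 (3.61) and 1 (3.59) at 94.3 mg/kg. Those at 0.94 and 94.3 mg/kg lay only 1.02 to 1.06 above the median. Vehicle replicate 1 came next at 3.50, 0.92 above it, so that its absence rests on the cutoff. Replicate 1 at 9.4 mg/kg, the liver with the highest Cxcl1, S100a8, S100a9 and Lcn2, had the lowest Siglec5 of its group, 2.25. In 33 livers Siglec5 lay below every array median, where a log2 difference is a poor measure of fold.

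Il1b covered a narrower range than the genes above other than Cxcl2, but its SD of 0.317 was still larger than that of 96.3% of the genes. Its values ran from 5.35 to 6.50 with a median of 5.87, a range of 2.23-fold, above every array median in all 36 livers. The lowest, median and highest values were 5.57, 5.88 and 6.18 in vehicle livers, 5.62, 5.77 and 6.45 at 0.1 mg/kg, and 5.35, 5.62 and 6.49 at 0.94 mg/kg. They were 5.92, 6.26 and 6.50 at 9.4 mg/kg, 5.66, 5.86 and 6.22 at 94.3 mg/kg, and 5.69, 5.99 and 6.44 at 943 mg/kg. The 3 highest livers were replicate 4 at 9.4 mg/kg (6.50), replicate 6 at 0.94 mg/kg (6.49) and replicate 6 at 0.1 mg/kg (6.45), which leaves out replicate 1 at 9.4 mg/kg. Even so, no liver at 9.4 mg/kg fell below the vehicle median.

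Csf3r, the receptor, was dim and had the narrowest range of the 8. Its values ran from 2.71 to 3.36, a range of 1.57-fold, below the median of every array in all 36 livers, and its SD of 0.155 was larger than that of 63.0% of the genes. The lowest, median and highest values were 2.82, 3.08 and 3.36 in vehicle livers, 2.71, 2.97 and 3.12 at 0.1 mg/kg, and 2.84, 2.94 and 3.19 at 0.94 mg/kg. They were 2.83, 3.15 and 3.27 at 9.4 mg/kg, 2.89, 3.04 and 3.27 at 94.3 mg/kg, and 2.83, 3.06 and 3.19 at 943 mg/kg. Vehicle replicate 1 (3.36) was highest, before replicate 3 at 94.3 mg/kg and replicate 1 at 9.4 mg/kg (3.27 each).

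**Figure D1:**
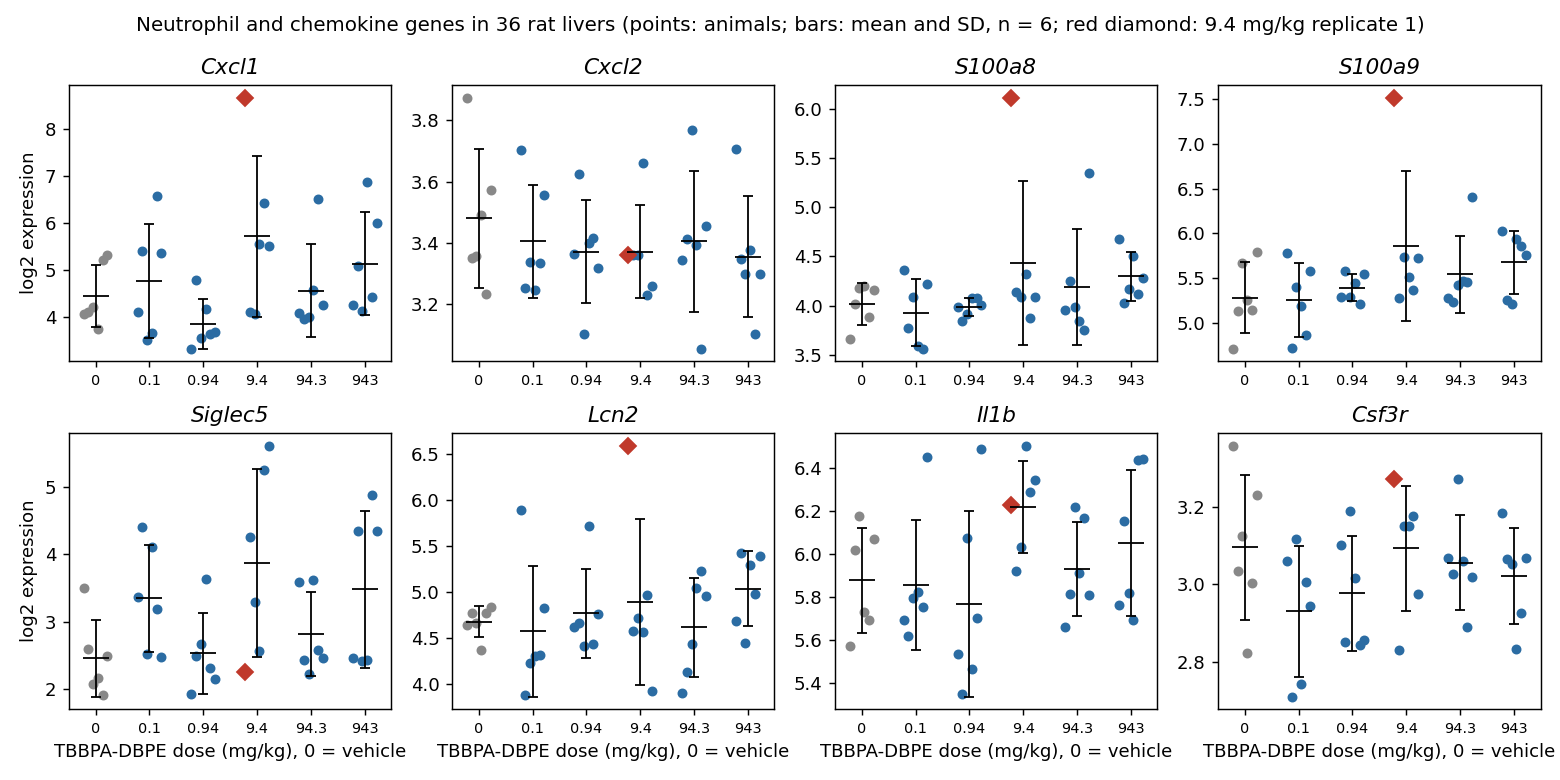
Log2 expression of the 8 genes in each of the 36 livers (vertical axes, scaled per gene) against the dose of TBBPA-DBPE in mg/kg with vehicle at 0; points are animals, horizontal bars group means and vertical bars SD (n = 6), and the red diamond is replicate 1 at 9.4 mg/kg. That liver stands at 8.68 for Cxcl1, 6.11 for S100a8, 7.52 for S100a9 and 6.59 for Lcn2, above all others, and at 2.25 for Siglec5, the lowest of its group.

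The order of the group means differed from gene to gene and did not follow the dose. For Cxcl1 the order from the lowest mean was 0.94 mg/kg (3.86 ± 0.535), vehicle (4.45 ± 0.658), 94.3 mg/kg (4.56 ± 0.982), 0.1 mg/kg (4.77 ± 1.21), then 943 mg/kg (5.13 ± 1.10) and last 9.4 mg/kg (5.72 ± 1.71; SD, n = 6). The 9.4 mg/kg group had the highest mean of Cxcl1, S100a8, S100a9, Siglec5 and Il1b, the 943 mg/kg group of Lcn2, and vehicle of Cxcl2 and Csf3r. In S100a9 the 3 highest doses held the 3 highest means, 5.86 ± 0.832 at 9.4 mg/kg, 5.68 ± 0.352 at 943 mg/kg and 5.54 ± 0.433 at 94.3 mg/kg. For each of the 8 genes, 0 of the 5 neighbouring pairs in that order differed by more than the pooled SD within groups. Sorted means lie close to their neighbours by construction, and that SD is of single animals, so that nothing is read from this count.

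At 9.4 mg/kg, Cxcl1 averaged 5.72 ± 1.71, against 4.45 ± 0.658 in vehicle livers, a log2 difference of 1.27 ± 0.586 (SE, 95% interval 0.08 to 2.46), and 4 of 6 animals lay above the vehicle range. Siglec5 averaged 3.87 ± 1.4, against 2.46 ± 0.570 in vehicle livers, a log2 difference of 1.42 ± 0.486 (0.43 to 2.40), with 3 of 6 above. S100a9 differed by 0.57 ± 0.254 (0.06 to 1.09) with 1 of 6 above, and Il1b by 0.34 ± 0.163 (0.01 to 0.67) with 4 of 6 above. None of these differences passed in limma after Benjamini-Hochberg adjustment over 31042 probe sets (adjusted p = 0.980 for each). S100a8 differed by 0.42 ± 0.247 (-0.08 to 0.92), Lcn2 by 0.21 ± 0.311 (-0.42 to 0.84), Cxcl2 by -0.11 ± 0.108 (-0.33 to 0.11) and Csf3r by -0.0026 ± 0.0874 (-0.18 to 0.17). At an unadjusted p under 0.05, 4 of the 8 genes were counted, Cxcl1, S100a9, Siglec5 and Il1b, all of them higher, beside 4.85% of all probe sets in either direction and 2.21% higher. The genes were chosen from these values, so that nothing is read from that count.

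Much of this group difference lay in 1 liver. Without replicate 1 at 9.4 mg/kg, the log2 difference from vehicle was 0.68 for Cxcl1, 0.24 for S100a9, 0.08 for S100a8 and -0.13 for Lcn2. It was 1.74 for Siglec5 and 0.34 for Il1b, so that these 2 genes did not rest on that animal. The count at an unadjusted p under 0.05 was then 1 gene, Siglec5, beside 4.62% of all probe sets. Without vehicle replicate 1 the count was also 1, beside 3.75% of all probe sets. It was 2 without vehicle replicate 2, 4 or 5, beside 5.37%, 4.72% and 5.42%.

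At 943 mg/kg, Siglec5 averaged 3.48 ± 1.16, against 2.46 ± 0.570 in vehicle livers, with a log2 difference of 1.02 ± 0.486 (0.04 to 2.01) and 3 of 6 animals above the vehicle range. Lcn2 averaged 5.03 ± 0.407, against 4.67 ± 0.167 in vehicle livers, and 4 of 6 animals lay above. Its log2 difference was 0.36 ± 0.311 (-0.27 to 0.99). Cxcl1 differed by 0.68 ± 0.586 (-0.51 to 1.87), S100a9 by 0.39 ± 0.254 (-0.12 to 0.91), S100a8 by 0.28 ± 0.247 (-0.22 to 0.78) and Il1b by 0.17 ± 0.163 (-0.16 to 0.51). Cxcl2 and Csf3r differed by -0.13 and -0.07. None passed in limma, with adjusted p from 0.865 for Siglec5 to 0.932 for Csf3r. At an unadjusted p under 0.05 only Siglec5 was counted among the 8, beside 5.74% of all probe sets in either direction and 3.07% higher. That count was 0 when any of vehicle replicates 3, 4, 5 and 6 was left out, and likewise for replicates 2, 5 and 6 at 943 mg/kg, beside 4.87% to 6.78% of all probe sets in those runs. Without replicate 4 of the dose group the Cxcl1 difference was 0.34.

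The other 3 doses showed smaller differences for most of the 8 genes. At 94.3 mg/kg, Siglec5 differed by 0.36 ± 0.486, S100a9 by 0.26 ± 0.254, S100a8 by 0.17 ± 0.247 and Cxcl1 by 0.12 ± 0.586, and the others by -0.08 to 0.05. Without replicate 6 of that group S100a8 was at -0.06 and S100a9 at 0.09, and without replicate 5 Cxcl1 was at -0.28. At 0.1 mg/kg, Siglec5 differed by 0.89 ± 0.486 (-0.10 to 1.88), Cxcl1 by 0.32 ± 0.586 and Csf3r by -0.17 ± 0.0874 (-0.34 to 0.01). At 0.94 mg/kg the direction of Cxcl1 was the opposite, with a log2 difference of -0.59 ± 0.586 (-1.78 to 0.60), and 4 of 6 livers lay below the vehicle range. At these 3 doses 0 of the 8 genes were counted at an unadjusted p under 0.05, beside 6.90% of probe sets at 94.3 mg/kg, 5.62% at 0.1 mg/kg and 4.16% at 0.94 mg/kg. In all 40 differences, some dosed animals lay within the vehicle range. The same was not counted over all genes, so that nothing particular to the 8 is read from it. The 5 comparisons share the same 6 vehicle arrays.

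Over all 5 doses the moderated F test of limma gave Siglec5 the smallest unadjusted p of the 8, 0.0340 (adjusted p = 0.918). It was the 1 gene of the 8 under 0.05, beside 5.35% of all probe sets. The slope over dose rank was 0.09 ± 0.0428 log2 units per step for S100a9 (unadjusted p = 0.0342, adjusted p = 0.874), again the 1 gene of the 8, beside 5.68% of all probe sets. Other slopes were 0.14 ± 0.0889 for Siglec5, 0.13 ± 0.106 for Cxcl1, 0.08 ± 0.0413 for S100a8 and 0.0036 ± 0.0151 for Csf3r. The median difference of the 8 genes was -0.05, -0.07, 0.38, 0.08 and 0.32 from the lowest to the highest dose, where that of all genes was 0.0014, 0.0030, 0.0024, 0.0053 and 0.0018.

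**Figure D2:**
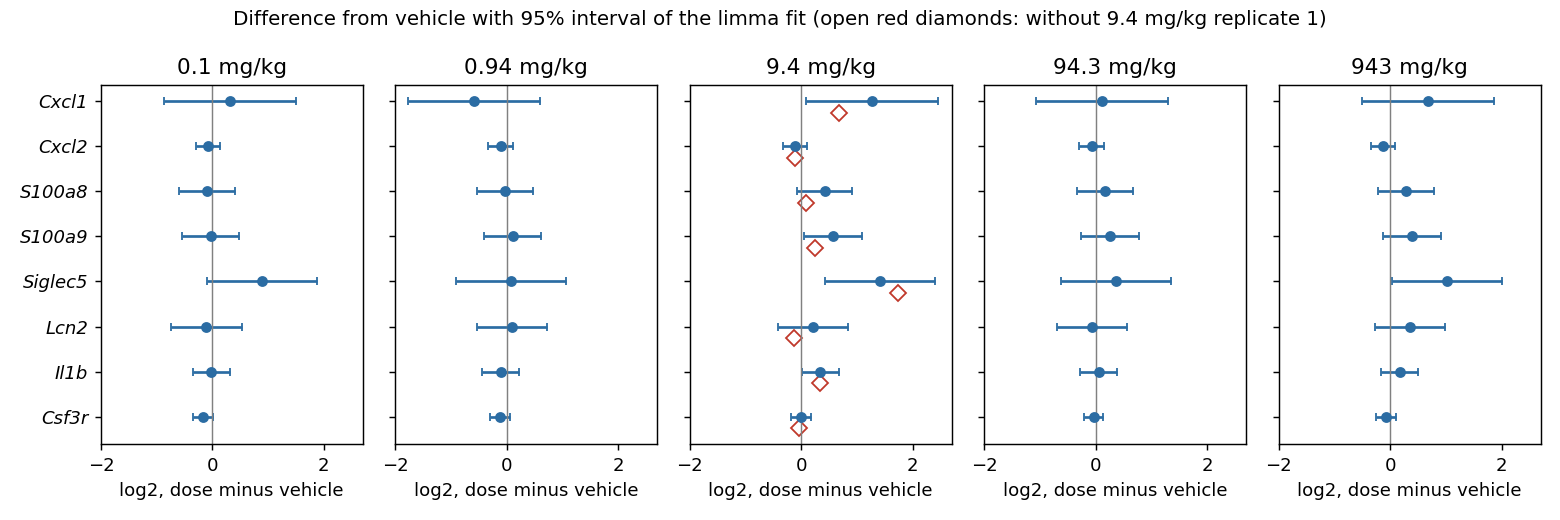
Log2 difference of each dose from vehicle for the 8 genes, with the 95% interval of the limma fit (n = 6 per group); open red diamonds at 9.4 mg/kg leave out replicate 1. The interval of Cxcl1 runs from 0.08 to 2.46 at 9.4 mg/kg and includes 0 at the other doses, and without that animal the difference is 0.68.

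Replicate 1 at 9.4 mg/kg was examined over all genes, and is described as a single animal with no test. It held the highest value of the 36 livers for 4 of the 8 genes, Cxcl1, S100a8, S100a9 and Lcn2, and for 589 of all 14217 genes (4.14%). Against the median of the other 35 livers, Cxcl1 was higher by 4.45, the second largest excess of any gene after Abhd3 (5.23), a lipase gene. Abhd3 also varied widely among the other livers, from 2.33 to 7.40. S100a9 was higher by 2.09, S100a8 by 2.04 and Lcn2 by 1.92. Il1b was higher by 0.41 and Csf3r by 0.24, Cxcl2 lay at that median, and Siglec5 was on the other side of it at -0.33. In this animal the ligand Cxcl1 was high together with calprotectin and Lcn2. The dim signals of Cxcl2 and Csf3r limit what can be read from their small differences.

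Genes of the acute phase, the hepatic response to interleukin 6, stood high in the same liver: 13 of 26 listed genes had their highest value of the 36 there, with a median excess of 0.21. Among them was Stat3, the transcription factor of that response, at 9.54 with a median of 7.75 over all livers. Of the NF-kappaB targets, 3 of 25 were highest there, among them Bcl3 at 8.14 and Nfkbiz, a nuclear cofactor of NF-kappaB, at 7.45. Socs3, the feedback inhibitor of Stat3 signalling, was highest there at 4.80. Smooth muscle and matrix genes were also high in this piece of liver: Myh11, smooth muscle myosin, was above the median of the other 35 by 2.06, Actg2, smooth muscle actin, by 1.76, and the matrix proteoglycans Lum and Dcn by 1.67 and 1.35. The stellate and fibroblast list had 3 of 9 genes highest there and a median of 0.56. The part of these genes in the values of the 8 was not tested. Ccl21, a lymphoid chemokine, was higher by 1.60. Bcl6, a transcriptional repressor named here after its values were seen, was higher by 1.77, while Cish, a target of growth hormone and Stat5 also named after its values were seen, lay at -1.94. Both genes varied as far in other livers. Bcl6 was 9.12 here and ran from 4.71 to 9.94 in the others. Cish was 5.03 here and ran from 4.54 to 8.01 in the others.

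Neutrophil markers other than the 8 genes differed by less in this liver. The 21 measured genes lay between -0.23 and 0.41 from the median of the other 35 livers, with a median of 0.13, and 18 of 21 were above it. Over all genes the median difference in this liver was -0.0065, and the share of genes above was not counted. The integrin chain Itgb2 and haptoglobin (Hp) were at their highest of the 36 there, 2 of 21 (9.52%), against 4.14% of all genes. Camp differed by 0.13, Mmp8 and Mmp9 by 0.07 each and the defensin Np4 by 0.19, and the largest were Itgb2 and Cxcr2 at 0.41. Of these, all but Itgb2 lay below every array median in all 36 livers, where an excess may not show. The mean of the list in this liver, 5.01, lay within the range of the vehicle livers, which ran from 4.77 to 5.02. Its place among the 36 was second, after a vehicle liver. Other cell type markers were also high in this liver. The means of the monocyte list (6.34), the endothelial list (7.58) and the stellate and fibroblast list (7.12) were the highest of the 36, and that of the lymphocyte list (4.69) was second. Above the median of the other livers lay 9 of 10 monocyte, 14 of 17 lymphocyte, 13 of 14 macrophage, 8 of 9 stellate and 4 of 8 endothelial genes. For the remaining cell type lists it was 3 of 7 erythroid, 4 of 7 platelet and 4 of 11 hepatocyte genes. The part of these cell types in the values of the 8 genes was not tested. Macrophage markers had 0 of 14 genes at their highest there, erythroid markers 0 of 7, platelet markers 0 of 7 and hepatocyte markers 0 of 11. Monocyte markers had 1 of 10, endothelial markers 2 of 8 and lymphocyte markers 3 of 17.

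**Figure D3:**
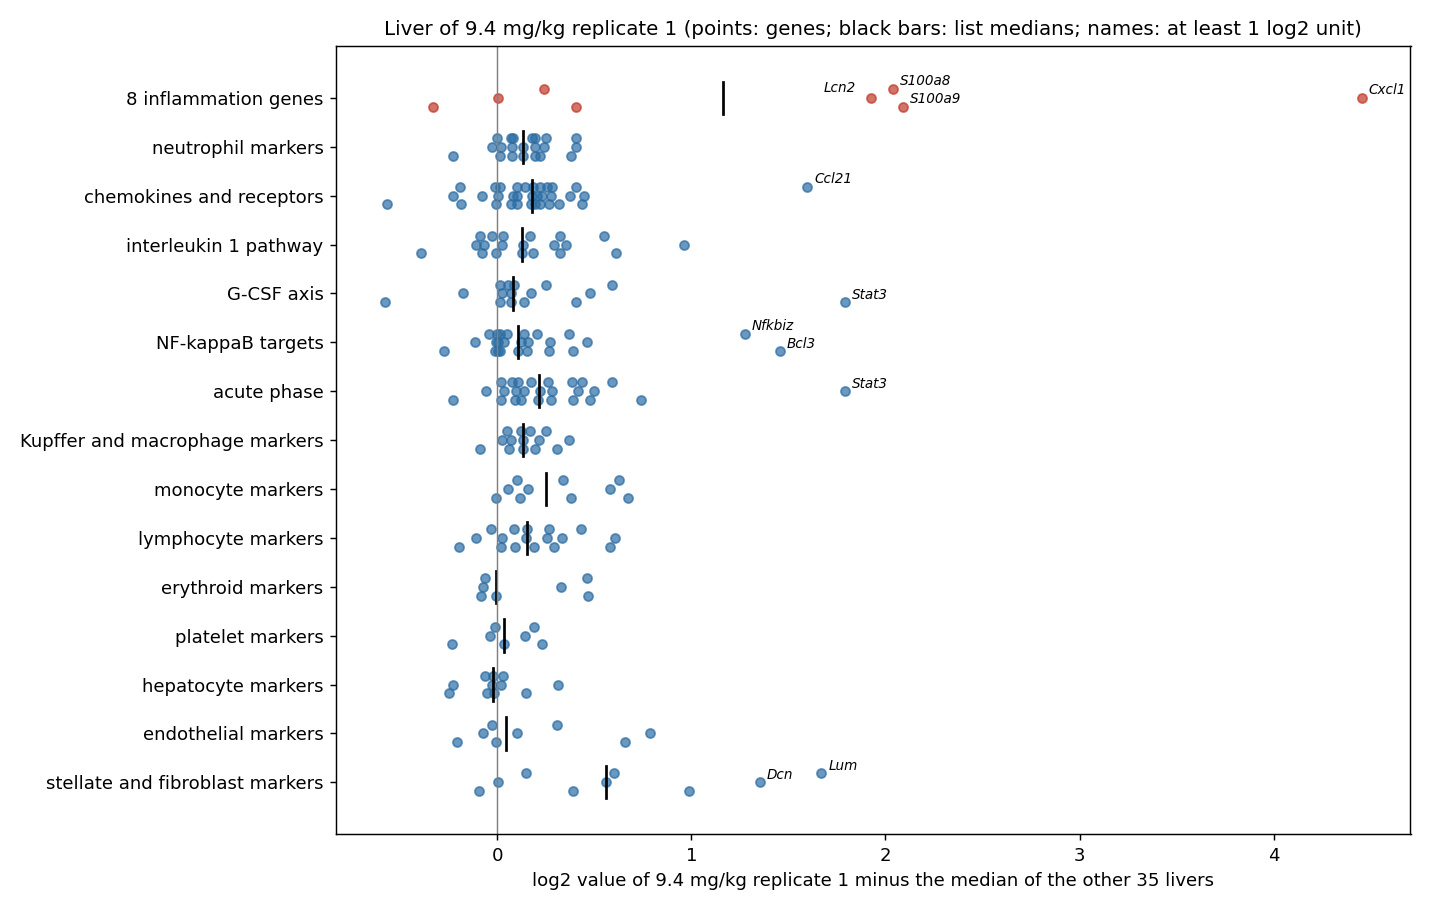
Log2 value of replicate 1 at 9.4 mg/kg minus the median of the other 35 livers (horizontal axis) for the 8 inflammation genes and for the listed pathway and cell type genes; points are genes, black bars list medians, and genes at or above 1 are named. Cxcl1 lies at 4.45 and S100a9, S100a8 and Lcn2 near 2, while the 21 neutrophil markers lie between -0.23 and 0.41.

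The second high liver for calprotectin, replicate 6 at 94.3 mg/kg, had S100a8 at 5.35 and S100a9 at 6.40. It held the highest value of the 36 for 0 of 26 acute phase genes, beside 1.94% of all genes, and the median difference of the acute phase list from the other 35 livers was -0.03. Of the 21 measured neutrophil markers, 1 had its highest value of the 36 in this liver (4.76%, against 1.94% of all genes). It was Camp at 3.93, a probe set below every array median in all 36 livers. Another marker of that list lay at least 1 log2 unit above the median of the other 35 livers. The median difference of the neutrophil list was 0.0013. The livers with the highest Siglec5, replicates 6 and 5 at 9.4 mg/kg, had Cxcl1 at 5.50 and 6.42.

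Over the 36 livers the 8 genes fell into loose groups, given here as Pearson correlations without a test, since the livers share dosing groups and the arrays were normalized together. S100a8 and S100a9 had r = 0.89, and 0.78 without replicate 1 at 9.4 mg/kg. S100a9 with Lcn2 had 0.64, and 0.42 without that liver, and S100a8 with Lcn2 0.55 and 0.26. These 3 pairs were the only ones of 28 above 0.5, and the median over the pairs was 0.17. Cxcl1 with S100a9 had 0.45, which was 0.09 without that liver, and Cxcl1 with S100a8 0.38 and -0.07. The link of the chemokine to calprotectin thus rested on 1 animal, whereas the S100a8 and S100a9 pair did not. The neighbouring chemokine genes Cxcl1 and Cxcl2 had r = -0.17. Siglec5 had -0.26 with S100a8, and -0.52 after each group was centred on its mean.

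**Figure D4:**
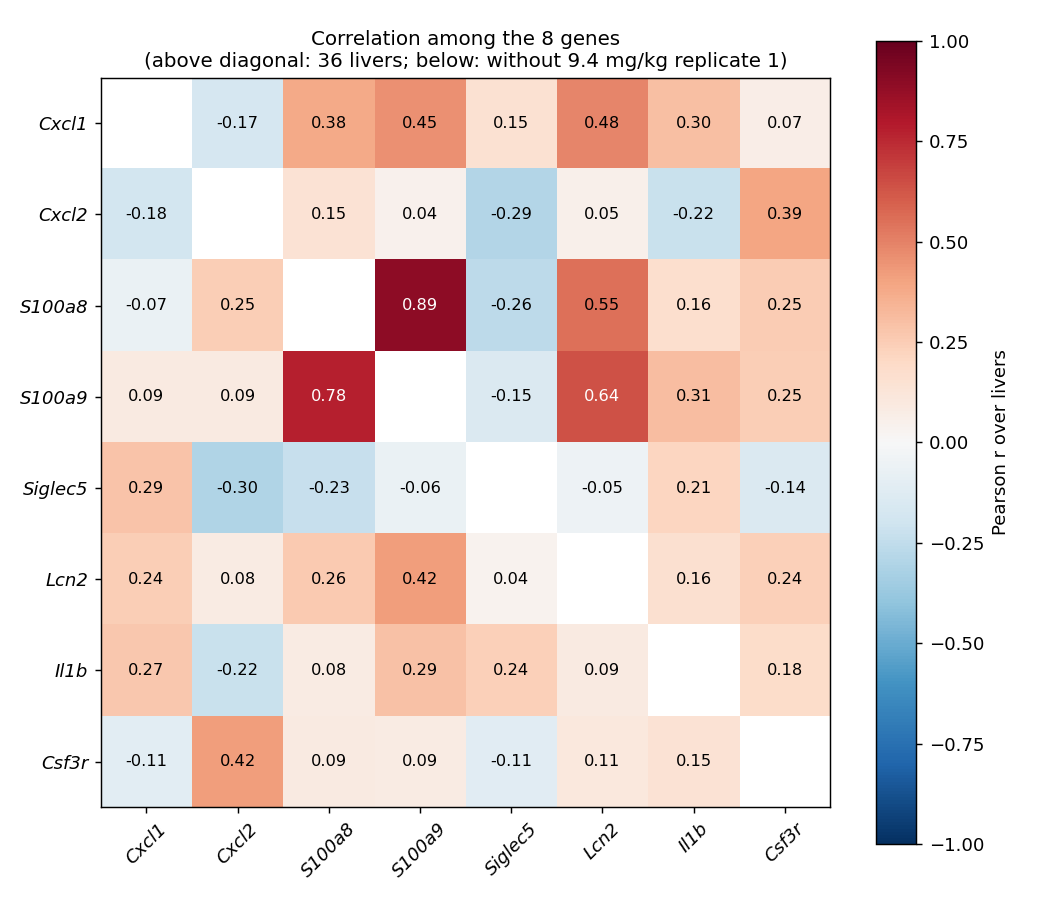
Pearson correlation between the 8 genes over 36 livers (above the diagonal) and over 35 livers without replicate 1 at 9.4 mg/kg (below). S100a8 and S100a9 keep 0.78 below the diagonal, while Cxcl1 with S100a9 has 0.45 above and 0.09 below.

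The genes whose values over the 36 livers were most like each of the 8 were mostly not the same ones. For Cxcl1 they were Nfkbiz (r = 0.73, and 0.62 without replicate 1 at 9.4 mg/kg) and Rin2, a regulator of Rab5 (0.71, and 0.75 without that liver). Bcl6 had 0.68 with Cxcl1 and the hepatocyte transcription factor Cebpa -0.72, with 0.72 and -0.73 without that liver. For S100a8 the closest after S100a9 was Stfa2l2, a stefin A-like protease inhibitor (0.74, and 0.49 without that liver), and for S100a9 after S100a8 it was Actg2 (0.74 and 0.35). For Lcn2 they were Dmbt1, a scavenger receptor-like protein of epithelia (0.76 and 0.63), and the water channel Aqp5 (0.71 and 0.62).

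Il1b stood apart, since its values moved with those of antigen presentation genes. Its closest genes were RT1-Da, a chain of the rat MHC class II molecule, and Cd74, the invariant chain that guides it (r = 0.87 each, and 0.87 each without replicate 1 at 9.4 mg/kg). Its correlation was 0.80 with the mean of the macrophage markers, 0.73 with that of the lymphocyte markers and 0.68 with that of the neutrophil markers. The neutrophil list holds genes of other myeloid cells too, among them Lyz2 of the macrophage list and Cybb (r = 0.82 with Il1b). The correlation of Il1b was -0.16 with the acute phase mean and -0.0026 with the hepatocyte mean. For Cxcl1 the correlation with the macrophage mean was 0.09 and for S100a9 0.24. At 9.4 mg/kg, where Il1b was highest, the macrophage list had its highest group median, 8.62 (range 8.50 to 8.70). In vehicle livers it was 8.49 (8.05 to 8.77). The means of 12 of 14 markers at 9.4 mg/kg were above vehicle, beside 51.2% of all genes. The part of macrophage content in the Il1b values was not tested.

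The genes closest to Cxcl2, Csf3r and Siglec5 were outside the listed pathways. Closest to Cxcl2 were Chrnb4 (0.66), an acetylcholine receptor subunit, and Cdhr4 (0.64), a cadherin-related protein, and closest to Csf3r were Insm2 (0.64) and Rcc1 (0.62). Siglec5 had only loosely similar genes, Dnase1 (0.57) and the neurofilament gene Nefh (0.56). Cxcl2 and Csf3r lay below every array median in all 36 livers. Each of these r is the highest or next highest of 14217 genes. How high the largest r of unrelated values would be was not computed, so that no likeness is read from them.

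**Figure D5:**
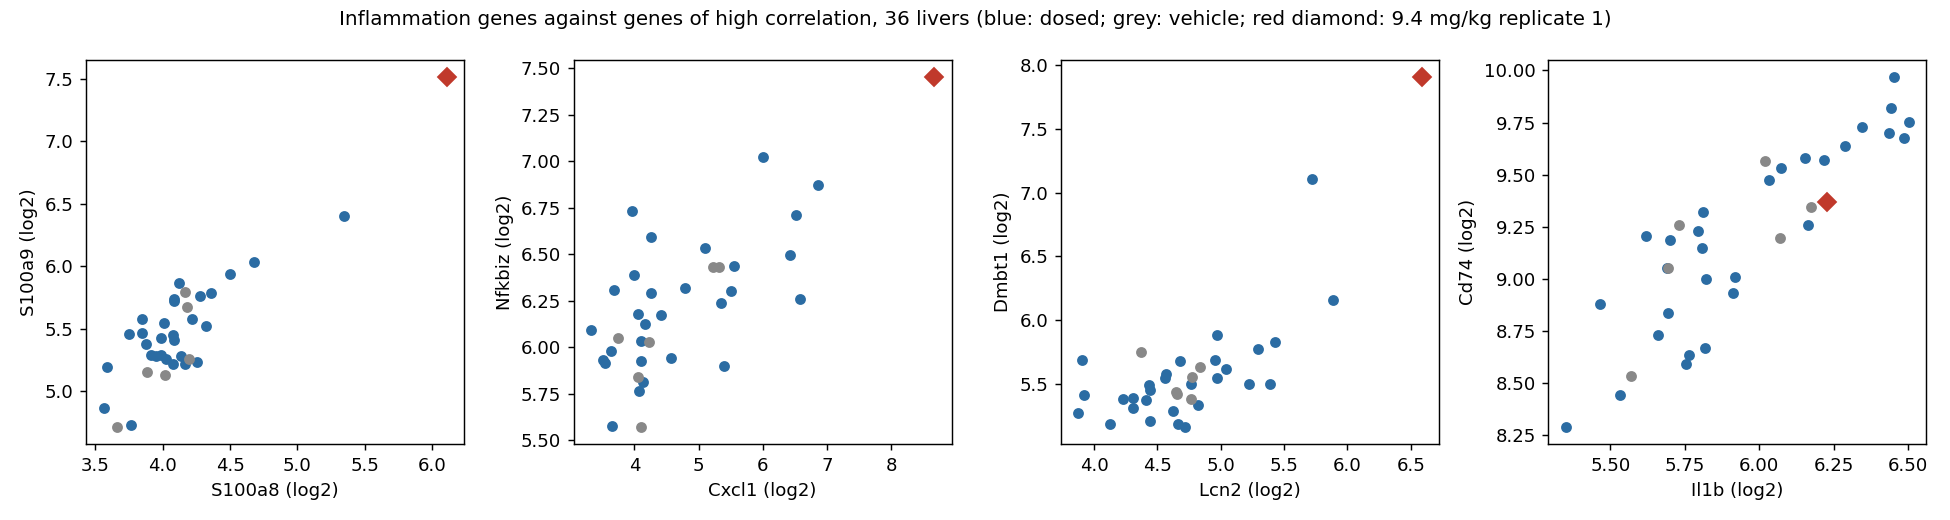
Log2 values of S100a9, Nfkbiz, Dmbt1 and Cd74 (vertical axes) against S100a8, Cxcl1, Lcn2 and Il1b (horizontal axes) in the 36 livers; points are animals, blue for dosed, grey for vehicle, and the red diamond is replicate 1 at 9.4 mg/kg. The diamond is at the far corner for the first 3 pairs and within the cloud for Il1b and Cd74, where r = 0.87.

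A mean profile of the 8 genes was set against every other gene. The mean was taken over unscaled log2 values, so that genes of wide spread can weigh more in it. Of the 8, Cxcl1 had r = 0.82 with this mean, S100a9 0.71, Lcn2 0.69 and S100a8 0.60. The r was 0.47 for Il1b, 0.37 for Siglec5, 0.24 for Csf3r and -0.08 for Cxcl2. Among other genes, the 15 highest had r from 0.62 to 0.71. They included Sema4a (0.71), a semaphorin, Nfkbiz (0.70), Nfil3 (0.66), a transcription factor of immune cells and the clock, Stat3 (0.66), Tnfrsf21 (0.65), a death receptor, and Efna1 (0.64), an ephrin. Genes of B cells and plasma cells were Fcmr (0.64), the receptor for immunoglobulin M, and Jchain (0.63), the joining chain of secreted immunoglobulins. The others were Stfa2l2 (0.68), Actg2 and Myh11 (0.65 each), Fen1 (0.64), a flap endonuclease, Dmbt1 (0.63), the membrane protease St14 and the laminin chain Lama5 (0.62 each). The lowest r were those of Fastkd3 (-0.63), Pparg (-0.62), Cebpa (-0.61), Tsku and Bud13 (-0.59 each). Without replicate 1 at 9.4 mg/kg, 8 of the 15 stayed among the 100 highest, and Actg2 was at 0.22, Myh11 at 0.26 and Stat3 at 0.31, while Nfkbiz and Sema4a were both at 0.56.

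Other genes of the same pathways were counted at each dose, and 0 of them passed over all probe sets at any dose. Of 33 other chemokines and receptors, 3 were higher and 0 lower than vehicle at 9.4 mg/kg at an unadjusted p under 0.05, where 2.53% of all genes were higher and 2.06% lower. Ccl2, a monocyte chemoattractant, differed by 0.41 and the interferon-induced chemokine Cxcl10 by 0.53, and both were highest in replicate 4 at 9.4 mg/kg, not in replicate 1 (limma F test, adjusted p = 0.886 for Ccl2 and 0.916 for Cxcl10). Without replicate 4 they were at 0.20 and 0.31. Cxcl9 and Ccl5 differed by 0.46 and 0.44 and Cxcl13, the B cell chemokine, by -0.07. Of 20 genes of the interleukin 1 pathway, 4 were higher and 0 lower, with Il18 at 0.31 and the caspases Casp4 and Casp1 at 0.35 and 0.27. Il1r1, the receptor, differed by -0.02, although it was highest of the 36 in replicate 1 at 9.4 mg/kg. In the axis of granulocyte colony-stimulating factor, 0 of 16 were counted, with Stat3 at 0.03, Cebpb at -0.03 and Cebpa at -0.19. Of 25 NF-kappaB targets, 2 were higher, with Nfkbiz at 0.42, Bcl3 at 0.45, Tnfaip3 at 0.33 and the stress gene Ier3 at 0.0058. Nfkbiz and Bcl3 were both highest of the 36 in replicate 1 at 9.4 mg/kg, and without that liver Nfkbiz was at 0.23.

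The acute phase list had 1 of 26 genes higher at 9.4 mg/kg and a median of -0.00080, although 13 of its genes peaked in replicate 1 of that group. At 943 mg/kg it had 0 higher and 2 lower, beside 3.21% of all genes higher and 2.60% lower. The metallothionein Mt2A differed by -0.64 and A2m, a protease inhibitor, by -0.10 at that dose.

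Among cell type markers at 9.4 mg/kg, 5 of 17 lymphocyte genes were higher, beside 2.53% of all genes higher and 2.06% lower, with the killer cell granzyme Gzma at 0.55 and Ptprc, the common leukocyte antigen CD45, at 0.35. Of 10 monocyte genes, 3 were higher and 1 lower, and S100a4, another S100 protein of leukocytes, differed by 0.46 (limma F test, adjusted p = 0.886). Of 21 neutrophil genes, 1 was higher with a median of 0.06, and of 14 macrophage genes 1 with a median of 0.16. Erythroid, platelet, hepatocyte, endothelial and stellate markers had 0 counted in either direction. At 943 mg/kg, 2 of 21 neutrophil genes were higher and their median was -0.03, beside 3.21% of all genes higher. The median of the macrophage markers at that dose was -0.06.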

How the data were processed

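The deposited log2 values per probe set were made by the authors with RMA (affy), as the submitters' processing notes state. RMA normalizes all arrays to 1 distribution and compresses differences of dim probe sets. Their versions were not given in the sources used here. Per the series' design text the authors used maanova. That test was replaced here by limma 3.58.1 in R 4.3.3 (lmFit, contrasts.fit, eBayes) on all 36 arrays with 1 mean per group, over 31042 probe sets after 57 control probe sets were left out. The replicates are single animals. P values are two-sided, with Benjamini-Hochberg adjustment within each comparison and a threshold of 0.05. The fit was tested on simulated data. Arrays limit the precision by their number.

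Of the probe sets, 20826 name 1 gene, 436 several and 9780 none. All 8 genes matched a rat gene table by Entrez identifier. Genes were named by a rule: the 8 genes, livers holding 1 of the 3 highest values or lying at least 1 log2 unit above the median, up to 4 genes per list by SD and 2 by F test, the 15 highest and 5 lowest correlations with the mean profile, and the 2 closest genes of each gene. Abhd3, Ccl21 and single neutrophil markers outside this rule were chosen after their values were seen. The genes and the 14 lists were chosen with earlier results of these data known. Alternatives were another quantile normalization, array centring, the upper 50% of probe sets, a variance trend, array weights, a replicate block, a fit of 2 groups only and leaving out each animal.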

Additional observations from a re-analysis of the deposited data

Results flagged for a closer look

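In 8 of 48 sets of 6 livers (1 gene in 1 group), the highest liver stood farther from the next than Dixon's 95% limit allows. Chance alone gives about 1 in 20, but the 8 genes were picked for differing among single animals in these arrays, so that nothing is read from the count of 8. Replicate 1 at 9.4 mg/kg stood apart for S100a8 (6.11, next liver 4.32) and S100a9 (7.52, next 5.74). Replicate 6 at 94.3 mg/kg stood apart for the same genes, S100a8 (5.35, next 4.25) and S100a9 (6.40, next 5.47). Since S100a8 and S100a9 correlate, these 4 are not separate observations. Replicate 5 at 94.3 mg/kg stood apart for Cxcl1 (6.51, next 4.57), and replicate 4 at 0.94 mg/kg for Lcn2 (5.72, next 4.76). Replicate 6 at 0.1 mg/kg stood apart for Il1b (6.45, next 5.82), and replicate 4 at 9.4 mg/kg for Cxcl2 (3.66, next 3.36), a dim probe set. Cxcl1 in replicate 1 at 9.4 mg/kg did not, since other livers of its group were also high. No vehicle liver stood apart in this way.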

How the results depend on the processing

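None of the 8 genes passed the adjusted threshold in any run, with a lowest adjusted p of 0.667. The count of the 8 genes at an unadjusted p under 0.05 was less stable, and the cause was not tested except where named. At 0.1 mg/kg it was 1 after quantile normalization again, with the replicate block and in a fit of the 2 groups only, against 0 as reported. At 9.4 mg/kg the count of the 8 was 2 with a variance trend, with array weights and in a fit of the 2 groups only, against 4. At 943 mg/kg it was 0 with a variance trend and 0 among the upper 50% of probe sets, which drop the dim genes, and 4 in a fit of the 2 groups only, against 1. For the F test it was 0 with a variance trend, 0 among the upper 50% and 3 with the replicate block, against 1. With fewer probe sets tested, the upper 50% held 997, 609, 783, 1355 and 1017 probe sets at an unadjusted p under 0.05 from the lowest to the highest dose, against 1744, 1292, 1506, 2142 and 1782. Signs near 0 turned: Csf3r at 9.4 mg/kg was 4e-04 after quantile normalization again and 0.0195 with array weights, against -0.0026, and Il1b at 94.3 mg/kg was -0.0095 with array weights, against 0.05. Replicate numbers did not pair the animals: same-numbered animals had a median correlation of deviations of 0.0026 (-0.27 to 0.29), and 8 of 36 were closest to their own number.

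With each animal left out in turn, the count of the 8 genes at an unadjusted p under 0.05 ran from 0 to 2 at 0.1 mg/kg, 1 to 4 at 9.4 mg/kg, 0 to 1 at 943 mg/kg, 0 to 2 for the F test and 0 to 2 for the slope. Probe sets past the adjusted threshold ran from 0 to 1 at 9.4 mg/kg (1 without replicate 3) and 0 to 11 at 94.3 mg/kg (11 without replicate 1). Of the 40 differences of the 8 genes, 17 changed sign in some run. At 0.1 mg/kg these were Cxcl1 (-0.0411 to 0.57), Cxcl2 (-0.13 to 0.0042), S100a9 (-0.14 to 0.0784), Lcn2 (-0.37 to 0.0347) and Il1b (-0.14 to 0.0395). At 0.94 mg/kg they were S100a8 (-0.10 to 0.0040), S100a9 (-0.0055 to 0.21), Siglec5 (-0.14 to 0.28) and Lcn2 (-0.097 to 0.16). At 9.4 mg/kg they were Lcn2 (-0.13 to 0.41) and Csf3r (-0.0573 to 0.0501). At 94.3 mg/kg they were Cxcl1 (-0.28 to 0.29), Cxcl2 (-0.15 to 0.0037), S100a8 (-0.0588 to 0.26), Lcn2 (-0.18 to 0.0820), Il1b (-0.0082 to 0.11) and Csf3r (-0.0938 to 0.0136). The slope of Csf3r ran from -0.0016 to 0.0124. The sign was kept in every run for 23 of the 40. At 9.4 mg/kg these included Siglec5 (1.07 to 1.74 with an animal left out), Il1b (0.28 to 0.40) and Cxcl1 (0.68 to 1.605). The others at that dose were S100a9 (0.24 to 0.69), S100a8 (0.08 to 0.53) and Cxcl2 (-0.17 to -0.03). The median r of the 15 genes most like the mean profile was 0.65, and 0.63 after centring groups, 0.48 without the 2 animals farthest from the median and 0.46 without replicate 1 at 9.4 mg/kg, a choice made after seeing the data. A mean over several probe sets was not run, as each gene had 1. Cxcl2, Csf3r and, in most livers, Siglec5, S100a8 and Cxcl1 lay below the array medians, which limits what their folds can show. The same holds for Lcn2 in 14 livers.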
